A study of Mus musculus with 13 samples.

Results

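Stem cells of old mice were compared with stem cells of young mice by RNA sequencing, across all genes. The comparison uses 6 of the 13 libraries of the series, chosen by the labels of cell subtype and age and by no measured value: 3 young stem libraries (mice of 2 to 3 months) and 3 aged stem libraries (20 to 22 months). The other 7 libraries are of Paneth cells and enter only where the age change of stem cells is set against that of Paneth cells. Both age groups are labelled male and share the same Lgr5-eGFP-IRES-CreERT2 allele, which places green fluorescent protein and a tamoxifen-inducible Cre recombinase under the control of the Lgr5 gene, and the same mixed C57Bl6/SV129 background. The crypts came from proximal small intestine stripped of its villi. Stem cell RNA went through standard Illumina library protocols, whereas the Paneth libraries used a Clontech SMARTer pico kit, so that a difference between them by cell type and one by kit cannot be told apart. Whether the 3 libraries of a group are from separate animals is not in the labels, so p-values measure only library to library spread, which may be technical.

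Intestinal stem cells sit at the crypt base and renew the epithelium under Wnt signals, which act through frizzled and Lgr receptors and beta-catenin on target genes such as Lgr5, Ascl2 and Axin2. Their daughters become absorptive enterocytes or secretory cells (goblet, Paneth, enteroendocrine and tuft cells), and Notch ligands on young secretory cells hold neighbouring cells back from the secretory fate. Crypt base cells are also known to express the class II major histocompatibility complex (MHC), with which cells present peptides to helper T cells.

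The 3 marker genes of the label were present in every stem library. Levels are counts per 1000000 reads (CPM) scaled by the trimmed mean of M-values over the 6 stem libraries, and values of single libraries are given in the order of the replicate numbers. Lgr5, the Wnt-amplifying receptor that marks these cells, stood at 143, 169.6 and 149.7 CPM in the young and at 142, 108 and 102 CPM in the aged libraries. Ascl2, a transcription factor of stem cell identity, stood at 57.2, 46.2 and 61.1 CPM young and at 42.5, 43.4 and 44.9 CPM aged. Olfm4, a secreted glycoprotein of the crypt base, stood at 4319, 4495 and 4943 CPM young and at 4528, 2706 and 5365 CPM aged. Every aged library lay below every young one for Lgr5 and Ascl2, while the Olfm4 groups overlapped. In bulk RNA, fewer cells of a type and less RNA per cell cannot be told apart.

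One young library stands apart and goes against its fellows in sex-linked genes. Xist, the RNA of the inactive X chromosome of female cells, had 18.5 CPM in young stem 1, against 2418 to 4267 CPM elsewhere. The Y-linked gene Ddx3y had 64.5 CPM in young stem 1, against 1.45 to 2.4 CPM elsewhere, and Uty at 51.3 CPM against 1.32 to 3.33 CPM. Kdm5d was at 86.5 CPM against 10.7 to 18 CPM, and Eif2s3y at 33.3 CPM against 0.207 to 1.46 CPM. Young stem 1 thus carries the RNA of its male label and the other 5 libraries do not. It was also the shallowest library, with 8398966 counted reads against 16038074 and 19740104 in young stem 2 and 3 and 14362083, 16185549 and 13634957 in aged stem 1, 2 and 3. The part of these facts in the results was not tested, so each result is given with and without young stem 1.

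With all 6 libraries, 0 of 17701 genes passed a Benjamini-Hochberg adjusted p of 0.05 in edgeR's quasi-likelihood test (0.0%), the smallest adjusted p being 0.0767. At an unadjusted p under 0.05 there were 1477 genes (8.34%), 726 higher (4.1%) and 751 lower (4.24%) in aged cells. The groups did not overlap for 2324 genes (13.1%), with all aged libraries above the young ones for 1199 (6.77%) and below them for 1125 (6.36%). By other tools 123 genes passed in DESeq2, 0 in limma-voom and 1070 in limma-voom with sample weights. Without young stem 1, 1332 of 18275 genes passed (7.29%), 811 higher (4.44%) and 521 lower (2.85%), and the groups did not overlap for 39.6% of genes (aged above for 19.5%, below for 20.1%). A gene is said to rise or fall only when it passed in these 5 libraries, since no gene passed in all 6. The direction of the 5-library calls depends on the scaling: scaled by library totals alone, 534 genes were higher and 948 lower, with the median of all genes moved to -0.09 on the log2 scale.

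The library left out gave a check of these 1332 calls on values that the calls did not use. Of the 811 genes that rose, young stem 1 lay below all 3 aged libraries, on the side of its own group, for 246 (30.3%), within the aged range for 268 (33.0%) and above all of them for 297 (36.6%). Of the 521 genes that fell, it lay above all aged libraries for 139 (26.7%), within their range for 246 (47.2%) and below them for 136 (26.1%). Young stem 1 was nearer to the aged mean than to the mean of its fellow young libraries for 1098 of the 1332 genes. Most genes called between the aged libraries and young stem 2 and 3 thus did not have the other young library on the young side. The groups of genes below differ in this respect, and the place of young stem 1 is given beside many of their calls, though not all.

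**Figure D1:**
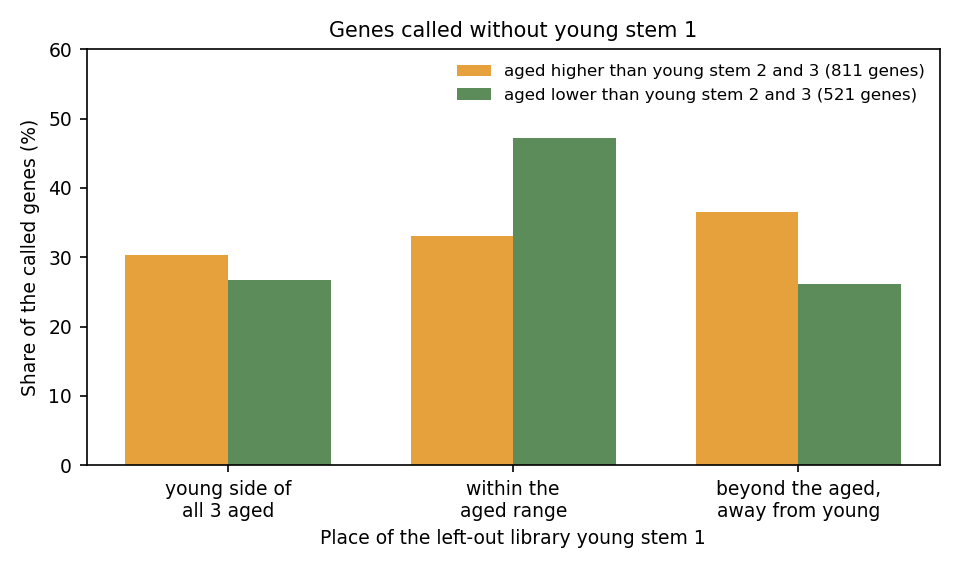
Share (%) of the genes called between the aged libraries and young stem 2 and 3, by where the left-out library young stem 1 lies: on the young side of all 3 aged libraries, within their range, or beyond them. The young side holds 30.3% of the 811 higher and 26.7% of the 521 lower genes.

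The calls without young stem 1 were related to the GC content of transcripts. Over the 16139 tested genes with a transcript in the reference annotation (91.2%), a library's deviation from the mean of the 6 was related to the GC content of the longest transcript, with Spearman's rho of 0.16, -0.49 and -0.22 in young stem 1, 2 and 3 and 0.23, 0.41 and -0.03 in aged stem 1, 2 and 3 (across genes, as a description). The age groups overlap in this, with young stem 1 above aged stem 3. The source of the relation was not tested. The genes were put into 5 groups of like size by GC. In the fit without young stem 1, the group lowest in GC (31.0 to 43.8%) held 33 genes that rose and 284 that fell. The group highest in GC (55.5 to 75.9%) held 320 that rose and 11 that fell. The median log2 change of the groups went from -0.25 to 0.29 with GC, and from -0.2 to 0.17 with all 6 libraries. An alternative fit with a smooth GC term for each library, added after the data were seen, called 847 of 16606 genes (5.1%), 520 higher (3.13%) and 327 lower (1.97%), against 1440 of the same genes without that term, and 649 of them were among the 1332. Where that term ends or adds a call of a gene named below, this is said beside it.

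**Figure D2:**
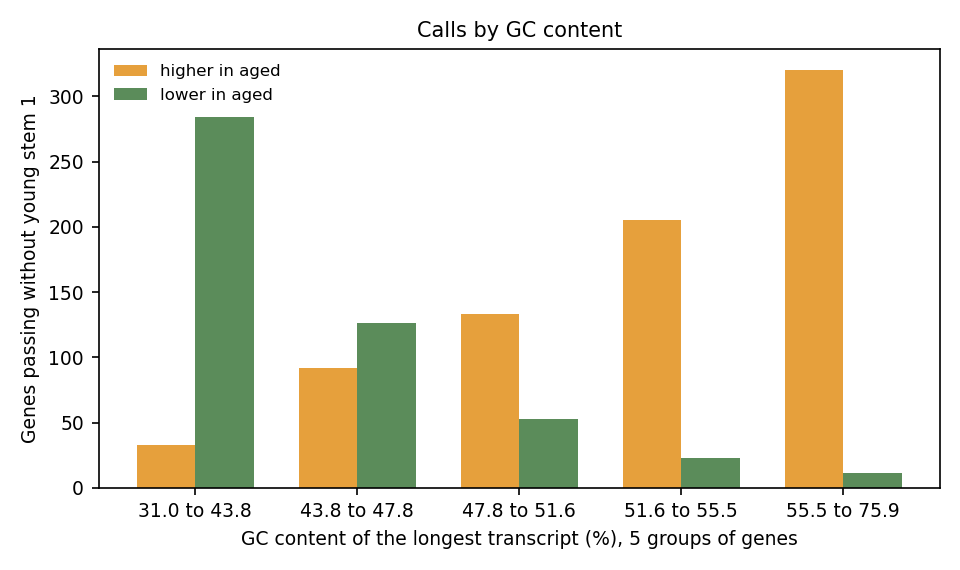
Number of genes that passed without young stem 1, split into 5 groups by the GC content (%) of the longest transcript; bars give genes higher and lower in aged stem cells. Lower genes go from 284 in the lowest group to 11 in the highest, and higher genes from 33 to 320.

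Wnt signalling is named in the title of the study. Its lists are to be read against the 7.29% of all genes that passed without young stem 1. Of the ligands, 11 of 19 tested were higher and 0 passed without young stem 1. Of the receptors, 9 of 18 were higher, and 1 passed. Of the secreted and intracellular inhibitors 18 of 23 were lower, with 0 passing. Of the target genes 16 of 23 were lower, and the median log2 change was -0.15 against -0.02 over all genes tested; without young stem 1 the medians were -0.17 and 0.0, and 1 target rose and 3 fell. Every aged library lay below every young one for 5 of the 23 targets and above them for 0, against 6.36% and 6.77% of all genes.

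Lgr4, the R-spondin receptor of crypt cells, was the receptor that fell. It stood at 251, 336 and 333 CPM in the young and at 202, 202 and 231 CPM in the aged libraries. Every aged library lay below every young one, young stem 1 included. The log2 change was -0.53 ± 0.17 (SE) with 6 libraries, with an adjusted p of 0.477 in edgeR's quasi-likelihood test, and -0.63 ± 0.14 without young stem 1, with an adjusted p of 0.0157. Lgr5 changed by -0.40 ± 0.18 with all 6 libraries (adjusted p = 0.588) and by -0.42 ± 0.16 without young stem 1 (0.131), and Ascl2 by -0.33 ± 0.17 (0.624) and -0.27 ± 0.16 (0.332), so that neither passed. With the GC term Ascl2 changed by -0.59 without young stem 1 and passed there (adjusted p = 0.0334).

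The targets that fell without young stem 1 were the D-type cyclin genes Ccnd1 and Ccnd2, which drive entry into the cell cycle, and Tnfrsf19, a receptor gene of crypt base cells. Ccnd2 stood at 194, 432 and 526 CPM in the young and at 227, 214 and 293 CPM in the aged libraries. Young stem 1 was the lowest of all 6, so the fall (-0.94 ± 0.16, adjusted p = 0.00471) rests on young stem 2 and 3, and with all 6 libraries the change was -0.65 ± 0.32 (adjusted p = 0.617). Ccnd1 changed by -0.80 ± 0.16 (adjusted p = 0.0102) without young stem 1 and by -0.59 ± 0.24 (0.569) with it, and Tnfrsf19 by -0.70 ± 0.18 (0.0292) and -0.54 ± 0.23 (0.569). Young stem 1 lay within the aged range for both, and for 0 of the 4 targets that passed did it lie on the young side. The target that rose was Myc, the growth-promoting transcription factor, at 223, 101 and 118 CPM young and 157, 162 and 159 CPM aged. Young stem 1 held the highest level of Myc, and the rise (0.57 ± 0.14, adjusted p = 0.0291) was lost with the GC term (adjusted p = 0.0554). The beta-catenin cofactor genes Bcl9 and Bcl9l rose without young stem 1. Bcl9 was at 35, 22.1 and 26.6 CPM young and 51.4, 45.7 and 32.3 CPM aged (0.85 ± 0.20, adjusted p = 0.0226), and Bcl9l changed by 0.86 ± 0.19 (0.0152). Both calls were lost with the GC term (0.0615 and 0.0699). Axin2, the feedback inhibitor that is often read as a reporter of the pathway, stood at 572, 377 and 435 CPM young and 490.1, 458 and 441 CPM aged with overlapping groups. It did not pass, at 0.01 ± 0.19 with 6 libraries (adjusted p = 0.996) and 0.22 ± 0.14 without young stem 1 (0.397).

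Of the 29 genes in the list of stem cell markers, 19 were lower in aged cells, with a median of -0.09, and 0 passed with 6 libraries. Every aged library lay below every young one for 7 of the 29 and above them for 0, against 6.36% and 6.77% of all genes. Besides Lgr5 and Ascl2 these included Soat1, a cholesterol-esterifying enzyme, at 279, 317 and 279.9 CPM young and 224, 209.7 and 233 CPM aged. They also included Slc12a2, a sodium-potassium-chloride transporter, at 1794, 2356 and 2114 CPM young and 1559, 1373 and 1753 CPM aged. The log2 changes without young stem 1 were -0.40 ± 0.14 for Soat1 (adjusted p = 0.0971) and -0.49 ± 0.15 for Slc12a2 (0.0574), so that neither passed. Markers that rose without young stem 1 were Msi1, an RNA-binding protein of progenitors, and Phlda1. Msi1 stood at 101, 41.7 and 39.2 CPM young and 76.5, 74.4 and 52 CPM aged (0.77 ± 0.18, adjusted p = 0.0201; with the GC term 0.105). Young stem 1 was the highest library for Msi1, and likewise for Phlda1, at 47.8, 16 and 12 CPM young and 27.2, 40.7 and 24.9 CPM aged (1.17 ± 0.24, 0.0106).

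Of the proliferation genes 21 of 30 were lower, with a median of -0.07. Mki67, a protein of cycling cells, stood at 647, 1185 and 1265 CPM young and 996, 846 and 1109 CPM aged, with young stem 1 the lowest. Plk1, a mitotic kinase, was at 43, 33.8 and 35.6 CPM young and 48.7, 49.98 and 63.3 CPM aged, above the young range in every aged library, and rose without young stem 1 (0.66 ± 0.17, adjusted p = 0.0287; with the GC term 0.143). The proliferation gene that fell was Mcm4, a subunit of the replicative helicase, at 90.4, 139.7 and 152 CPM young and 85.5, 77.8 and 118 CPM aged (-0.61 ± 0.17 without young stem 1, adjusted p = 0.0458; with the GC term 0.0699), with young stem 1 within the aged range. The cyclin-dependent kinase inhibitor Cdkn1a was at 11.6, 9.23 and 12.6 CPM young and 15.8, 16.9 and 12.5 CPM aged, with overlapping groups and no pass (0.44 ± 0.23, adjusted p = 0.626).

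Targets of the Yap and Tead factors, which read mechanical and regenerative signals, were higher in 8 of 19 cases, and the median log2 change was -0.02. Every aged library lay below every young one for 6 of the 19, against 6.36% of all genes. Cyr61, a secreted matrix protein, stood at 133, 99.97 and 114 CPM young and 75.4, 78.7 and 77.2 CPM aged, a change of -0.58 ± 0.16 (adjusted p = 0.405). Without young stem 1 it changed by -0.45 ± 0.14 (0.0668), and it passed there with the GC term (0.0182). The growth factor gene Areg went the other way, at 47.5, 16.1 and 15.5 CPM young and 36.3, 80.8 and 52.4 CPM aged. It rose without young stem 1 (1.87 ± 0.31, adjusted p = 0.0105), but young stem 1 lay within the aged range.

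Enteroendocrine genes were higher in aged stem cell libraries. These are the genes of the hormone-secreting cells of the gut, which arise from crypt progenitors. Of the genes of secretory granules and amine synthesis, 16 of 19 were higher, and the median log2 change was 0.78 against -0.02 over all genes, and 10 of the 19 had an unadjusted p under 0.05 on the higher side, against 4.1% of all genes. All aged libraries lay above all young ones for 6 of the 19, against 6.77% of all genes. The summed level of the list was 446, 395 and 331 CPM in the young and 763, 1240 and 806 CPM in the aged libraries, so that even the lowest aged library exceeded the highest young one. The median was 1.07 without young stem 1, and 8 of 19 rose, against 4.44% of all genes. Young stem 1 lay on the young side of all aged libraries for 6 of those 8 and within the aged range for the other 2.

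Chga and Chgb encode chromogranins, acidic proteins that pack hormone granules. Chgb stood at 172, 142 and 111 CPM in the young and at 344, 694 and 411 CPM in the aged libraries. Its log2 change was 1.77 ± 0.27 with 6 libraries (adjusted p = 0.111) and 1.95 ± 0.32 without young stem 1 (adjusted p = 0.0161), and the groups did not overlap. Chga was at 28.5, 29.6 and 26.1 CPM in the young and 88.2, 187 and 95.7 CPM in the aged libraries, and without young stem 1 it rose by 2.18 ± 0.37 (adjusted p = 0.0269). Aged stem 2 was the highest library for both genes. Tph1, the enzyme that starts serotonin synthesis, stood at 14.5, 8.3 and 9.45 CPM young and 26.8, 46.3 and 28.7 CPM aged, with changes of 1.68 ± 0.28 (adjusted p = 0.158) and 1.96 ± 0.25 (0.00112). The groups did not overlap for Tph1 either. Cpe and Pcsk1, which encode enzymes that trim prohormones, also rose without young stem 1, Cpe by 1.32 ± 0.28 (0.0119) and Pcsk1 by 1.39 ± 0.34 (0.0386). Rab3c, a granule-trafficking GTPase, rose by 0.88 ± 0.25 (0.0446), and the calls of these 6 genes held with the GC term.

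Hormone genes were mostly low, and 9 of the 16 listed passed the filter on low counts, so that no count over them stands for all hormones. Of those 9, 7 were higher in aged libraries. The summed level of the whole list, genes under the filter included, was 47.3, 48.5 and 47.6 CPM young and 70.9, 139 and 91.7 CPM aged. Tac1, the gene of substance P, stood at 6.4, 10.2 and 4.97 CPM young and 13.3, 39.2 and 19.7 CPM aged, a change of 1.74 ± 0.41 (adjusted p = 0.359). Gip, which encodes an incretin of the upper gut, was at 6.01, 9.35 and 13 CPM young and 14.1, 38.4 and 25.9 CPM aged (1.45 ± 0.38, adjusted p = 0.38). Cholecystokinin, from Cck, was at 4.18, 4.97 and 5.12 CPM young and 6.36, 15 and 10.1 CPM aged (1.13 ± 0.32, 0.411). All 3 genes had every aged library above every young one, and none passed in either fit. Gcg, the proglucagon gene, stood at 11.1, 5.84 and 6.11 CPM young and 11.1, 14.3 and 16.6 CPM aged and rose without young stem 1 (1.25 ± 0.25, adjusted p = 0.0105), as did Sct, the secretin gene (1.42 ± 0.40, 0.0419; with the GC term 0.139). Sst, the gene of the inhibitory hormone somatostatin, fell: it was at 1.57, 3.39 and 3.45 CPM young and 1.24, 1.7 and 0.879 CPM aged (-1.38 ± 0.40 without young stem 1, adjusted p = 0.049). Somatostatin thus went against the other listed hormones that passed, and young stem 1 lay within the aged range for it.

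Transcription factors that specify enteroendocrine cells were higher in 17 of 19 cases. The median was 0.45 with 6 libraries and 0.63 without young stem 1, where 6 rose, against 4.44% of all genes. Young stem 1 lay on the young side for 3 of the 6 and was nearer to the aged mean for 3. Summed levels overlapped, at 864, 572 and 457 CPM young and 702, 757 and 574 CPM aged. Young stem 1 was the highest of all 6 libraries. Lmx1a, a factor of serotonin-producing cells, stood at 3.13, 4.79 and 3.15 CPM young and 7.12, 10.4 and 9.09 CPM aged, and rose by 1.19 ± 0.30 (adjusted p = 0.0287). Myt1, a zinc finger factor of endocrine progenitors, was at 6.92, 5.14 and 5.81 CPM young and 10.6, 15.6 and 10.4 CPM aged (1.18 ± 0.27, 0.0176). Pax4 was at 0.783, 0.818 and 0.492 CPM young and 2.83, 5.85 and 1.25 CPM aged (2.37 ± 0.62, 0.0369; with the GC term 0.0659). These 3 genes had all aged libraries above all young ones. Insm1, a repressor of endocrine progenitors, stood at 13.6, 5.67 and 4.68 CPM young and 12.7, 14.2 and 10.3 CPM aged (1.28 ± 0.26, 0.0104), with young stem 1 inside the aged range. Neurog3, the factor that starts the endocrine programme, did not pass: it stood at 9.4, 9.12 and 8.07 CPM young and 11.3, 16.2 and 8.79 CPM aged (0.45 ± 0.26, adjusted p = 0.666).

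**Figure D3:**
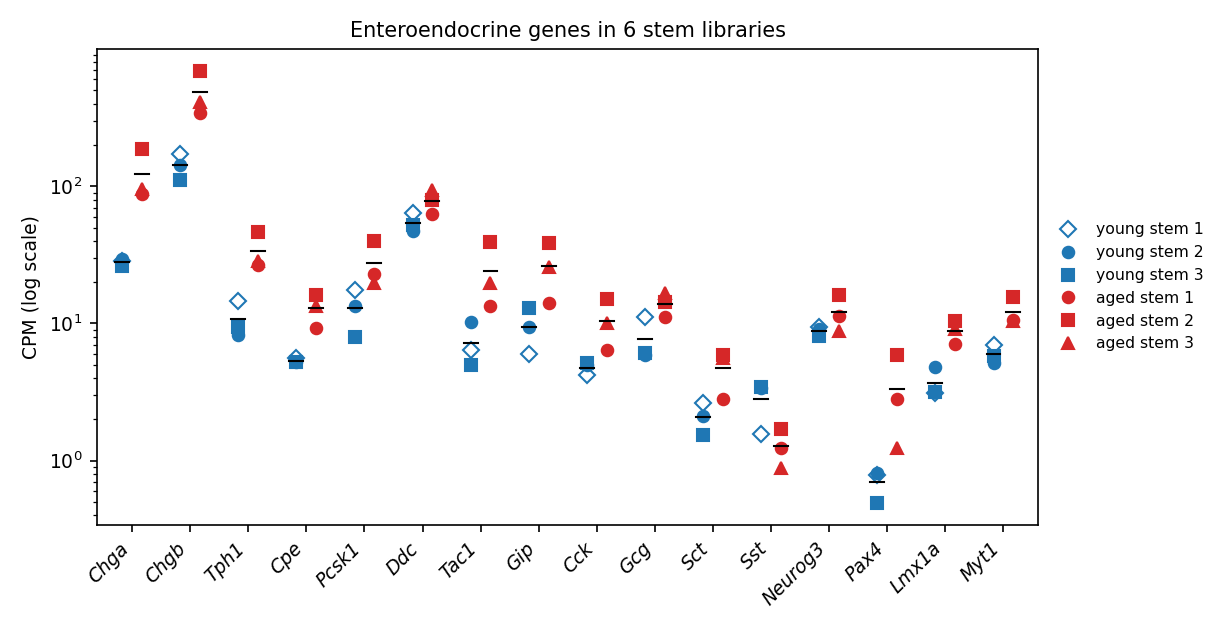
CPM (log scale) of 16 enteroendocrine genes in the 3 young (blue; young stem 1 open) and 3 aged (red) stem libraries, one point per library; bars are group means. Every aged library lies above every young one for Chga, Chgb, Tph1, Cpe, Pcsk1, Tac1, Gip, Cck, Sct, Pax4, Lmx1a and Myt1, and Sst lies lower.

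Markers of goblet and tuft cells were mostly higher too. Of the goblet cell genes 14 of 19 were higher (median 0.34, and 0.6 without young stem 1, where 3 rose). Of the tuft cell genes 14 of 18 were higher (median 0.39 and 0.56, where 4 rose). Over all genes 4.44% rose. Young stem 1 lay on the young side for 2 of the 3 goblet and 1 of the 4 tuft calls. With the GC term 1 of 18 goblet and 2 of 18 tuft genes rose, against 3.13% of all genes. All aged libraries lay above all young ones for 2 of 19 goblet and 1 of 18 tuft genes, against 6.77% of all genes. The summed levels of goblet genes overlapped, at 2600, 1720 and 2190 CPM young and 2240, 4330 and 3920 CPM aged. Those of tuft genes did too, at 463, 480 and 465 CPM young and 427, 502 and 556 CPM aged. Galnt12, a mucin-glycosylating enzyme, stood at 38.6, 40.8 and 45.4 CPM young and 70.8, 90.5 and 65.2 CPM aged. It changed by 0.86 ± 0.18 with 6 libraries (adjusted p = 0.262) and rose by 0.83 ± 0.17 without young stem 1 (0.0105). Spink4, a peptide of goblet cells, was at 61, 68.8 and 79.9 CPM young and 86.9, 137 and 121 CPM aged (0.66 ± 0.18, 0.0436; with the GC term 0.0855). Trpm5, the cation channel of tuft cells, was at 40.1, 23.8 and 29.4 CPM young and 46.5, 68.7 and 53.2 CPM aged and rose by 1.10 ± 0.19 without young stem 1 (0.00471). The groups did not overlap for any of these 3 genes. Plcg2, a phospholipase of tuft cells, rose by 1.02 ± 0.17 (0.00466), but at 92.7 CPM young stem 1 exceeded all aged libraries, which were at 64.8, 91 and 69 CPM. Paneth cell markers showed no such direction: 10 of 22 were higher, 0 passed in either fit, and their summed level was 2730, 3250 and 3080 CPM young and 3830, 3620 and 997 CPM aged. Enterocyte markers were lower in 18 of 23 cases (median -0.3).

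Notch pathway genes include the ligands that secretory precursors show to their neighbours. Dll1 stood at 80.2, 62 and 66.5 CPM in the young and at 97.5, 110.4 and 106 CPM in the aged libraries, with all aged libraries above. It rose by 0.73 ± 0.15 without young stem 1 (adjusted p = 0.00982; 0.59 ± 0.16 and 0.403 with all 6 libraries). Dll4 was at 30.9, 17.6 and 19.7 CPM young and 37.1, 37.3 and 29.7 CPM aged and rose by 0.92 ± 0.18 (0.00965), with young stem 1 inside the aged range. Notch4, a receptor, was at 9.53, 6.31 and 6.7 CPM young and 11.8, 13.2 and 10.6 CPM aged (0.89 ± 0.24, 0.0384; with the GC term 0.179). The ligand gene Jag2 went the other way without passing, at 5.75, 6.78 and 7.24 CPM young and 4.63, 4.28 and 3.08 CPM aged (-0.78 ± 0.29, 0.114), though it passed there with the GC term (0.0293). Over the whole Notch list 17 of 25 were higher with a median of 0.05, and Hes1, the target that represses the secretory fate, was at 91.3, 113 and 109 CPM young and 109.5, 91.4 and 102 CPM aged (-0.05 ± 0.16, adjusted p = 0.946). The secretory master factor Atoh1 was at 9.27, 10.8 and 9.55 CPM young and 9.33, 8.43 and 10.8 CPM aged, with overlapping groups.

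Genes of MHC class II were higher in aged stem cell libraries, and the young library that stood apart held the lowest level of most of them. Of 11 tested of 12 listed genes 9 were higher, and the median log2 change was 1.2 against -0.02 over all genes, and all aged libraries lay above all young ones for 8 of the 11, against 6.77% of all genes. The summed level was 261, 512 and 520 CPM young and 1170, 790 and 858 CPM aged. The median was 0.91 without young stem 1, and 4 of 12 rose (4.44% of all genes did), and for all 4 young stem 1 lay on the young side of every aged library. Leaving out 1 library at a time kept the median of the list between 0.91 and 1.45, and the GC term left it at 1.08.

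Cd74, the invariant chain that guards the peptide groove, stood at 120.3, 238 and 256 CPM in the young and at 624, 453 and 469.7 CPM in the aged libraries. Its log2 change was 1.33 ± 0.27 with 6 libraries (adjusted p = 0.262) and 1.09 ± 0.17 without young stem 1 (0.00235). H2-Ab1, a beta chain of the class II molecule, stood at 30.7, 64 and 64.8 CPM young and 169, 106 and 132 CPM aged, with changes of 1.34 ± 0.28 (0.284) and 1.10 ± 0.19 (0.00466). Both genes had every aged library well above every young one. H2-DMb1, a subunit of the peptide-loading chaperone, stood at 3.4, 9.7 and 10.5 CPM young and 29.6, 21.9 and 22.7 CPM aged, with changes of 1.61 ± 0.35 (0.284) and 1.32 ± 0.21 (0.00367). Ciita, the transactivator that switches class II genes on, stood at 13.1, 20.0 and 27.1 CPM young and 67.3, 38.9 and 35.8 CPM aged and just passed without young stem 1 (1.03 ± 0.28, 0.0499; with the GC term 0.115). The alpha chain gene H2-Aa was at 9.93, 34.1 and 34.7 CPM young and 83.1, 40.4 and 59.8 CPM aged, and the beta chain gene H2-Eb1 at 18.4, 51.4 and 66.4 CPM young and 129.7, 75.8 and 81 CPM aged. Neither passed, with changes of 0.85 ± 0.26 (0.074) and 0.72 ± 0.23 (0.0819) without young stem 1. Ctss, a protease that trims the invariant chain, went the other way at 46.6, 44 and 35.2 CPM young and 27.3, 25.6 and 28.9 CPM aged (-0.62 ± 0.18 with 6 libraries, adjusted p = 0.425). The beta chain gene H2-Eb2 was lower as well. With the GC term it changed by -1.125 with 6 libraries and by -1.31 without young stem 1, and did not pass.

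Class II genes are also high in leukocytes. General leukocyte, myeloid and B cell markers were not higher in aged libraries as groups. Those of T cells and intraepithelial lymphocytes were higher by summed level but not by count, with 8 of 16 tested higher. Single markers rose as given here. The summed level of 15 general leukocyte markers was 149, 119 and 91.4 CPM young and 95.5, 109 and 108 CPM aged, and 10 of the 13 tested were lower. Myeloid markers summed to 138, 140 and 43.2 CPM young and 71.3, 57.8 and 53.3 CPM aged, again lower in 10 of 13. B cell markers summed to 16.1, 18.4 and 17.9 CPM young and 21.8, 17.9 and 15.4 CPM aged. Among defining markers, Ptprc (CD45) was at 4.33 to 7.07 CPM young and 3.11 to 4.59 CPM aged and Itgax at 1.03 to 2.63 and 0.88 to 2.42 CPM. T cell and intraepithelial lymphocyte markers summed to 50.9, 46.1 and 42.9 CPM young and 55.4, 63.5 and 53.9 CPM aged. By this sum every aged library lay above every young one, but with Itgae, given below, left out the sums overlap. Of the list, 8 of 16 tested were higher (median log2 change 0.05) and 2 of the 26 listed were at 0 in every library. The member of that list that rose was Itgae, an integrin of intraepithelial lymphocytes, at 6.27, 4.32 and 4.14 CPM young and 17.8, 16.4 and 15.4 CPM aged, while the T cell receptor component Cd3e was at 1.05 to 1.83 CPM young and 0.415 to 1.32 CPM aged. Vav1 and Cd14 were the other leukocyte markers that rose without young stem 1 (1.01 ± 0.20, adjusted p = 0.0102, and 1.00 ± 0.26, 0.0329; Cd14 with the GC term 0.0659). The part of leukocytes in the class II result was not tested.

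Immunoproteasome and peptide transporter genes of the class I route were higher as well. Psmb8, a catalytic subunit of the immunoproteasome, stood at 30.4, 48.5 and 54.5 CPM young and 102, 122 and 100.1 CPM aged, with changes of 1.27 ± 0.22 with 6 libraries (adjusted p = 0.158) and 1.09 ± 0.16 without young stem 1 (0.00161). Psmb9, its partner subunit, was at 14.9, 25.3 and 36.3 CPM young and 52.5, 77.5 and 56 CPM aged (1.03 ± 0.20, 0.0105). Tap1, which carries peptides into the endoplasmic reticulum, was at 30.4, 34.2 and 37.4 CPM young and 51.2, 54.2 and 50.4 CPM aged (0.56 ± 0.15, 0.0381; with the GC term 0.155). Tap2, its partner, was at 16.4, 14.4 and 21 CPM young and 29.6, 35.7 and 24 CPM aged (0.78 ± 0.22, 0.0435; with the GC term 0.13). All aged libraries exceeded all young ones for these 4 genes. The class I heavy chain H2-K1 was at 328, 228 and 264 CPM young and 344, 362 and 372 CPM aged and rose without young stem 1, a call lost with the GC term (0.0723), whereas B2m, the light chain, was at 244, 236 and 209.5 CPM young and 242, 195 and 222 CPM aged. Over the class I list 20 of 28 were higher (median 0.23). Without young stem 1, 7 rose and 1 fell, against 4.44% and 2.85% of all genes. Young stem 1 lay on the young side for 5 of these 8. With the GC term 2 of 27 rose and 1 fell (median 0.18), against 3.13% and 1.97% of all genes. The gene that fell was Erap1, a peptide-trimming protease (-0.80 ± 0.15, 0.00836). These genes share reads with near copies of the class I family, so values of H2-K1 are uncertain.

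**Figure D4:**
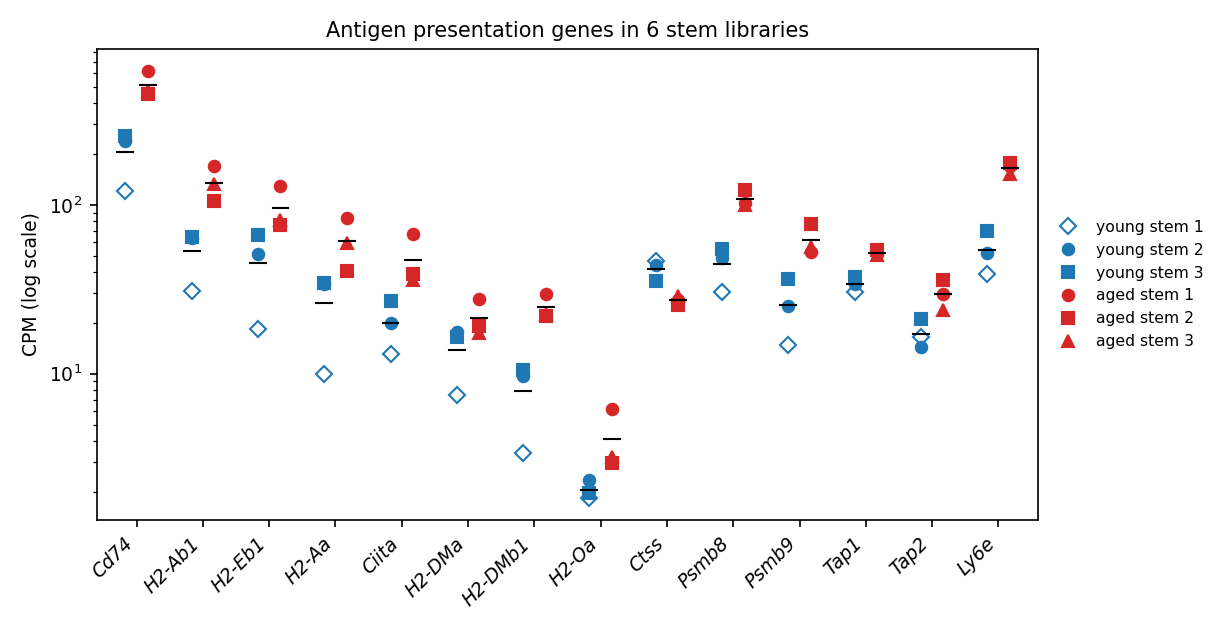
CPM (log scale) of class II, class I and interferon-inducible genes in the 3 young (blue; young stem 1 open) and 3 aged (red) stem libraries; bars are group means. All aged points lie above all young points for each gene except H2-DMa, where the groups touch, and Ctss, where the aged points lie below.

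Promoter windows of the genes that moved together are shown for H2-DMb1 and for Tap1 (RefSeq, GRCm38.p6, 250 bases before to 50 after the start, printed 5′ to 3′ on the strand of the gene). H2-DMb1 lies at chr17:34152941-34153240 on the plus strand and Tap1 at chr17:34187306-34187605 on the plus strand. The Tap1 window shares 275 bases with that of Psmb9, which is read from the minus strand, so that both genes start from one shared region. Capitals mark the Y box core ATTGG, or CCAAT on the other strand, an element of class II promoters.
H2-DMb1: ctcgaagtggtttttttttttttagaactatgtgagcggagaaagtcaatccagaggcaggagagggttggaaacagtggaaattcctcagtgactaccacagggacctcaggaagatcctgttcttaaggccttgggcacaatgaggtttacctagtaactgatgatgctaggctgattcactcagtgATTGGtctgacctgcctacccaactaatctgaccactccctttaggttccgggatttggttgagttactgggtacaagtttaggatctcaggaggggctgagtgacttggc
Tap1: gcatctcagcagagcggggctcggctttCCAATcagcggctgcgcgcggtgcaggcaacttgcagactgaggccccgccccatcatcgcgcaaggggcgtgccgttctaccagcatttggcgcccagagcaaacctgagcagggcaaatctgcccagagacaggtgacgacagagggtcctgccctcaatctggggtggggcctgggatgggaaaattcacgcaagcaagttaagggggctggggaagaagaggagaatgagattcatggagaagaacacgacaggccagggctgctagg
Searched on both strands, each motif on its own, the Y box core was found in the windows of 8 of 9 class II genes with a window and of 15 of 22 class I genes, against 41.1% of all 27025 genes with a window. The core is short and thus common, and a match is only a match of letters. The window of Psmb8, which also rose, held 0 such cores.

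Interferon response genes had a median change nearer to that of all genes. Of 51 tested 31 were higher, with a median of 0.14. Without young stem 1, 9 rose and 0 fell, against 4.44% and 2.85% of all genes. Young stem 1 lay on the young side for 3 of the 9, within the aged range for 5 and beyond it for 1. Ly6e, an interferon-inducible surface protein, was at 38.9, 52.1 and 70.5 CPM young and 169.9, 176 and 153 CPM aged and rose by 1.47 ± 0.17 without young stem 1 (adjusted p = 0.000405). Stat2, a transducer of type I interferon signals, was at 23.5, 20.6 and 16.1 CPM young and 28.4, 29.2 and 31.9 CPM aged (0.73 ± 0.19, 0.031; with the GC term 0.0571). The chemokine gene Cxcl10 was at 7.57, 2.45 and 1.08 CPM young and 5.53, 10.2 and 8.87 CPM aged (2.25 ± 0.40, 0.00574), with young stem 1 inside the aged range. Gbp9, a guanylate-binding protein, was at 3.27, 1.28 and 0.788 CPM young and 6.84, 3.96 and 2.86 CPM aged (2.17 ± 0.46, 0.0122), again with young stem 1 inside the aged range. Rsad2, the antiviral protein viperin, was at 5.75, 3.74 and 2.76 CPM young and 6.78, 11 and 6.96 CPM aged (1.37 ± 0.32, 0.0199). Rsad2 and Stat2 had no overlap of the groups.

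NF-kB genes rose in the 5-library comparison, and the left-out young library was nearer to the aged ones, as for most of all calls. NF-kB factors are held in the cytoplasm by IkB proteins, and the genes of their own inhibitors are among their targets, so that these genes follow recent activity of the pathway. Of 34 tested genes 26 were higher without young stem 1, with a median of 0.5, and 10 rose, against 4.44% of all genes. Young stem 1 was nearer to the aged mean for all 10, beyond all aged libraries for 4 and on the young side for 2. Over all 1332 calls these counts were 1098, 433 and 385. With it in the fit the median was 0.25 and 3 of 32 were higher at an unadjusted p under 0.05, against 4.1% of all genes. The summed level shows the split, at 1300 CPM in young stem 1, 701 and 697 CPM in young stem 2 and 3, and 1230, 1180 and 1070 CPM in the aged libraries.

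Nfkbia, which encodes the inhibitor IkB alpha, stood at 268, 89 and 80.9 CPM young and 204, 266 and 206 CPM aged. It rose by 1.43 ± 0.16 without young stem 1 (adjusted p = 0.00043), and with all 6 libraries it changed by 0.63 ± 0.45 (0.731). Nfkb2, the p100 subunit, stood at 109, 34.4 and 30.9 CPM young and 72.2, 83.6 and 77.5 CPM aged, with changes of 1.28 ± 0.16 (0.000626) and 0.44 ± 0.47 (0.824). For both genes young stem 1 was the highest or near the highest of all libraries. Tnfaip3, a ubiquitin-editing inhibitor of the pathway, was at 56.8, 21.6 and 21.7 CPM young and 42.5, 62 and 44.5 CPM aged (1.23 ± 0.19, 0.00287). Relb, a partner subunit, was at 74.3, 31.7 and 33.4 CPM young and 64.6, 66 and 49.4 CPM aged (0.91 ± 0.17, 0.00675). Tnf, an inflammatory cytokine, separated the groups without overlap, at 19.3, 4.79 and 2.81 CPM young and 30.1, 22.5 and 29.1 CPM aged. It rose by 2.88 ± 0.27 without young stem 1 (7.92e-05), and its value in young stem 1 lay between those of the other young and the aged libraries. Tnip1, a partner of Tnfaip3, was at 106, 30.6 and 29.6 CPM young and 71.6, 66.3 and 75.1 CPM aged (1.26 ± 0.15, 0.000626). The chemokine gene Ccl20 was at 14.6, 3.56 and 3.1 CPM young and 12, 9.37 and 9.97 CPM aged (1.68 ± 0.28, 0.00405). In both, young stem 1 exceeded every aged library. The cytokine gene Ltb was at 3.66, 0.234 and 0.345 CPM young and 4.22, 3.14 and 1.54 CPM aged (3.34 ± 0.59, 0.00519), and Bcl3, an atypical IkB protein, at 24.3, 13.2 and 15.3 CPM young and 24.5, 35.1 and 22.6 CPM aged (0.97 ± 0.22, 0.0169; with the GC term 0.0788). Members that did not pass were Nfkb1, the p105 subunit, at 137, 101 and 118 CPM young and 121, 111 and 114 CPM aged (0.10 ± 0.14, 0.746), and the adhesion molecule Icam1 (0.09 ± 0.20, 0.84). Duox2, an epithelial hydrogen peroxide generating oxidase, had the same order at 58.9, 22.8 and 24.4 CPM young and 111, 72.1 and 82.4 CPM aged (1.93 ± 0.19, 0.000157).

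The windows of Nfkbia and Nfkb2 are shown because these inhibitor and subunit genes rose together (RefSeq, GRCm38.p6, strand of the gene, 5′ to 3′). Nfkbia lies at chr12:55492598-55492897 on the minus strand, and the second RefSeq start of Nfkb2 at chr19:46305445-46305744 on the plus strand. Capitals mark the NF-kB site searched: 3 G, any 2 bases, 3 T and 2 C in this order, on either strand.
Nfkbia: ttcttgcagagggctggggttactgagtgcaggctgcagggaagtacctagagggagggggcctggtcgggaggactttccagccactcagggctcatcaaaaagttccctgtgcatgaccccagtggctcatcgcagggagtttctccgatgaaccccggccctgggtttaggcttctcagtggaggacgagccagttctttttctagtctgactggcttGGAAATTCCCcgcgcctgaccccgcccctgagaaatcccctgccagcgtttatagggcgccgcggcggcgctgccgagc
Nfkb2: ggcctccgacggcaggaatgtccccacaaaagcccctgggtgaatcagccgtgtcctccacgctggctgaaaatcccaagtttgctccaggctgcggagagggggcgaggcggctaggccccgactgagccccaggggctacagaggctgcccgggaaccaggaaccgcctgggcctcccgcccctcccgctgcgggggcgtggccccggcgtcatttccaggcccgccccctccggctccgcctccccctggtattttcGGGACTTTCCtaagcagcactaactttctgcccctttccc
The site was found in the windows of 9 of the 26 NF-kB list genes with a window and in 1.89% of all genes with a window. The list holds known targets, so this describes the list and not these libraries. The window of Tnf, which also rose, held 0 such sites.

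Immediate early genes, which respond within minutes to growth factors and stress, shared the pattern of NF-kB genes. Among the immediate early genes, 7 of 25 rose without young stem 1 and 0 fell (median 0.26), against 4.44% and 2.85% of all genes. For 0 of the 7 did young stem 1 lie on the young side, against 385 of all 1332 calls. With the GC term 4 of 25 rose and 0 fell (median 0.09), against 3.13% and 1.97% of all genes. Junb, an AP-1 subunit, was at 362, 146 and 167 CPM young and 288, 315 and 214 CPM aged (0.83 ± 0.17, adjusted p = 0.0117; with the GC term 0.0565). Ier5, a stress-inducible gene, was at 151, 76 and 72 CPM young and 146, 149 and 131 CPM aged (0.97 ± 0.15, 0.00224). Fos, the prototype of the class, was at 753, 509 and 604 CPM young and 589, 568 and 619.5 CPM aged and did not pass (0.12 ± 0.14, 0.698).

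Circadian clock genes differed between young stem 2 and 3 and the aged libraries, and young stem 1 was nearer to the aged ones. In the clock, Arntl (BMAL1) and its partners drive E-box genes such as the Per, Nr1d and Dbp genes, whose products feed back on Arntl. The activator genes Arntl and Npas2 and the output repressor Nfil3 rose without young stem 1, and Tef, Dbp, Per2 and Nr1d2 fell, which makes 3 and 4 of 20 tested (median -0.35), against 4.44% and 2.85% of all genes. Young stem 1 was nearer to the aged mean for all 7, as for 1098 of all 1332 calls. For 3 of the 7, Arntl, Nfil3 and Nr1d2, it still lay on the young side of every aged library, for 1 within the aged range and for 3 beyond it. The labels used here give no time of day.

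Tef, a clock output factor, stood at 19.2, 72.4 and 88.5 CPM young and 20.8, 23.2 and 21.4 CPM aged. It fell by 1.86 on the log2 scale without young stem 1 (SE 0.16, adjusted p = 2.32e-05), and changed by -1.47 ± 0.49 with it (adjusted p = 0.517). The aged libraries were within a narrow range, and young stem 1 lay just below it. Per2, a repressor of the clock, was at 15.4, 53 and 67.3 CPM young and 27.9, 25.2 and 23.2 CPM aged (-1.21 ± 0.17, 0.00141). Dbp, an output factor like Tef, was at 4.57, 10.2 and 14.6 CPM young and 3.53, 4.84 and 2.12 CPM aged (-1.79 ± 0.32, 0.00567). Nr1d2, a heme-binding repressor, was at 53.9, 104 and 111 CPM young and 43.1, 52.1 and 52.1 CPM aged (-1.10 ± 0.15, 0.0013). Of these 4 genes that fell, Nr1d2 had every young library above the aged, by a small margin for young stem 1. Arntl was at 59, 25 and 24.1 CPM young and 64.2, 60.5 and 66.2 CPM aged and rose (1.40 ± 0.16, 0.000405). Npas2, a partner of Arntl, was at 28.5, 11.4 and 8.37 CPM young and 24.2, 20.4 and 20.5 CPM aged (1.16 ± 0.22, 0.00783), and Nfil3, a factor that opposes Tef and Dbp, at 26.1, 15.7 and 15.5 CPM young and 30.8, 29.7 and 31.7 CPM aged (1.00 ± 0.18, 0.00571). All 7 of these calls held with the GC term.

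The window of the second RefSeq start of Tef (chr15:81811164-81811463, plus strand, GRCm38.p6) is printed 5′ to 3′ because Tef had the smallest adjusted p of the clock genes. Capitals mark the E-box CACGTG, which reads the same on both strands.
Tef: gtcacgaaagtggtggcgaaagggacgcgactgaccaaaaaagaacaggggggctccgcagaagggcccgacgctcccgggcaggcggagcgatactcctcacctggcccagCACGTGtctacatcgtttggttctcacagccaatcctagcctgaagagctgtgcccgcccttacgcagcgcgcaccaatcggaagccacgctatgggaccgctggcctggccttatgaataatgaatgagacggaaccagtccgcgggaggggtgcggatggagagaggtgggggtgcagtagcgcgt
The E-box was found in the windows of 4 of 16 clock genes with a window and in 8.09% of all genes with a window. The windows of Dbp and Nr1d2, which also fell, held 0 E-boxes.

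**Figure D5:**
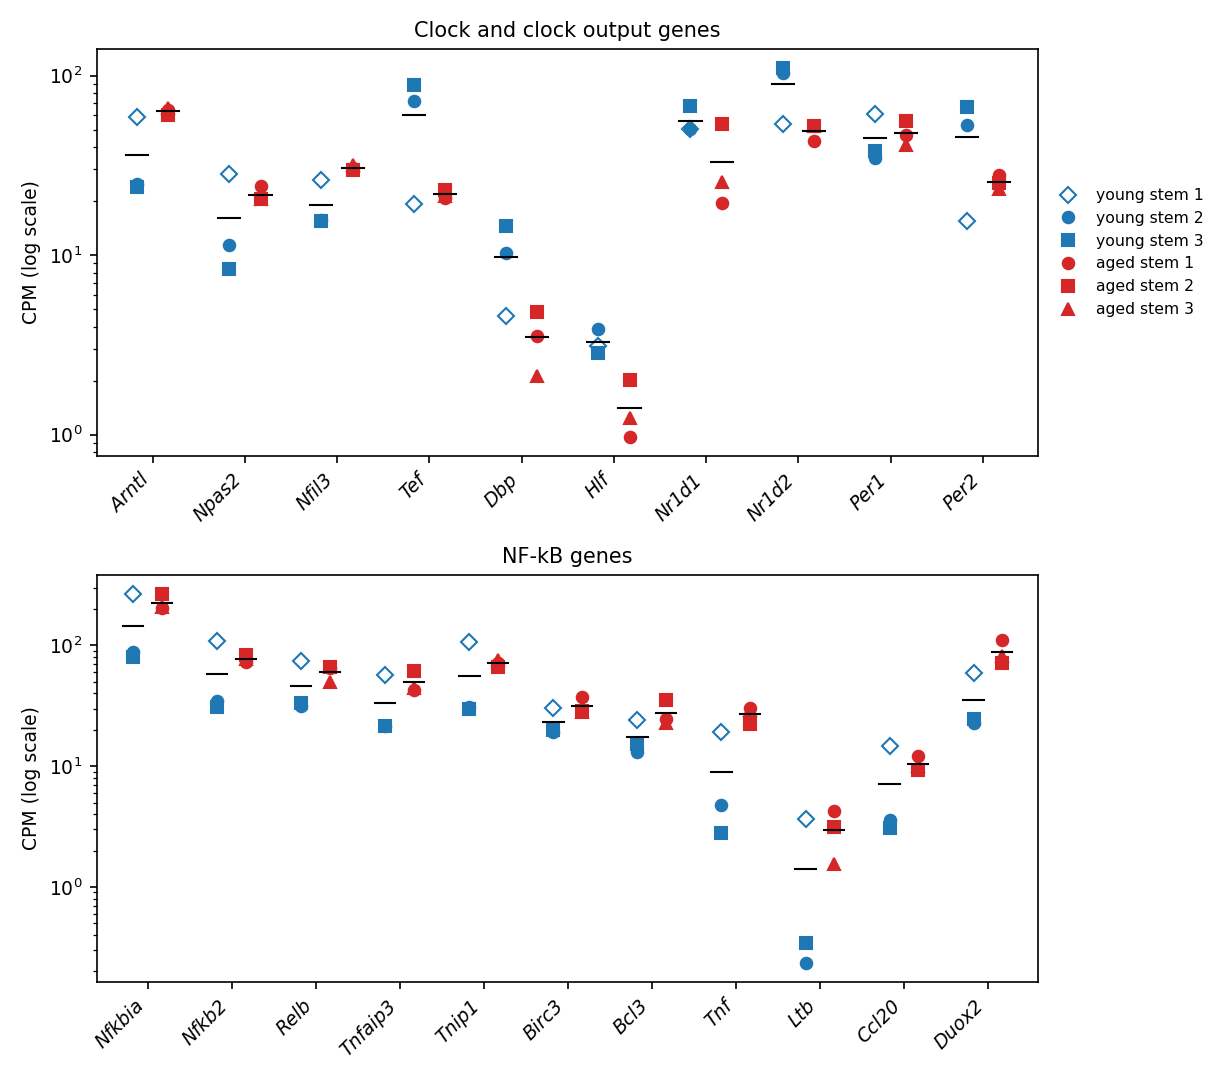
CPM (log scale) of clock genes (top) and NF-kB genes (bottom) in the 3 young (blue; young stem 1 open) and 3 aged (red) stem libraries; bars are group means. Young stem 1 lies nearer to the aged than to the other young libraries for most genes, as for Tef (19.2 CPM against 20.8 to 23.2 CPM) and Nfkbia (268 CPM against 204 to 266 CPM).

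Chaperone genes were lower in aged cells in 14 of 18 cases (median -0.34, and -0.4 without young stem 1, where 5 fell and 0 rose). Over all genes 2.85% fell and 4.44% rose. Young stem 1 lay on the young side for 2 of the 5 and was nearer to the aged mean for 4. Over all 1332 calls these counts were 385 and 1098. Hsph1, an Hsp110 chaperone, was at 95.5, 237 and 281 CPM young and 126, 112 and 82.4 CPM aged (-1.25 ± 0.17, adjusted p = 0.00161). Dnaja1, a co-chaperone of Hsp70, was at 175, 309.5 and 295 CPM young and 173, 145 and 167 CPM aged (-0.88 ± 0.14, 0.00384), and here young stem 1 lay just above the aged range. Hspa4, another Hsp110 protein, was at 256, 398 and 386 CPM young and 236, 243 and 276 CPM aged (-0.61 ± 0.14, 0.0188). Of 20 genes of the unfolded protein response 4 rose and 2 fell without young stem 1, against 4.44% and 2.85% of all genes. Young stem 1 lay on the young side for 1 of these 6 and was nearer to the aged mean for 5, to be read against the same counts over all calls. Those that rose were Ern1, which encodes IRE1 alpha, by 1.00 ± 0.19 (0.00918), its gut paralogue Ern2 by 1.28 ± 0.21 (0.00418), Ddit3, which encodes CHOP, by 1.08 ± 0.27 (0.0348) and Eif2ak3, which encodes the sensor PERK, by 0.72 ± 0.16 (0.0156). The sensor gene Atf6 (0.02 ± 0.16, 0.961) and the effector genes Atf4 (-0.09 ± 0.14, 0.761) and Xbp1 (-0.52 ± 0.19, 0.115) did not pass. The lectin chaperone Canx fell (-0.86 ± 0.18, 0.0155), as did the co-chaperone Dnajc3 (-0.60 ± 0.17, 0.0412; with the GC term 0.105), and the chaperone Hspa5 (BiP) was at 807, 929 and 1016 CPM young and 561, 684 and 753 CPM aged and missed the threshold (-0.52 ± 0.15, 0.0507). Of the 6 genes that passed and Hspa5, Ddit3 and Hspa5 had groups that did not overlap in all 6 libraries.

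Genes of fatty acid oxidation and ketone metabolism included several that fell without young stem 1. Acadl, an acyl-CoA dehydrogenase, was at 108, 74.4 and 76.2 CPM young and 44.2, 45 and 53.6 CPM aged (-0.64 ± 0.15, adjusted p = 0.0217), without overlap of the groups. Over the list 18 of 27 were lower, with a median of -0.12 in both fits, and 4 fell, against 2.85% of all genes. The trifunctional protein genes Hadha and Hadhb fell by 0.53 and 0.92 on the log2 scale (SE 0.15 and 0.21, adjusted p = 0.0476 and 0.0263; Hadhb with the GC term 0.0782), with young stem 1 inside the aged range for both. Cyp3a11, a drug-metabolising enzyme of enterocytes, was at 5.75, 3.62 and 4.73 CPM young and 0.415, 1.26 and 1.76 CPM aged (-1.84 ± 0.47, 0.0294; with the GC term 0.0712). Me1, the cytosolic malic enzyme that supplies NADPH, was at 10.3, 13.6 and 14.9 CPM young and 2.35, 4.59 and 3.88 CPM aged and fell by 1.95 on the log2 scale (SE 0.29, adjusted p = 0.00193). The fatty acid elongase genes Elovl5 and Elovl6 fell as well (adjusted p = 0.00609 and 0.0168), but young stem 1, at 22.6 and 21.4 CPM, was the lowest of all 6 libraries for both. Of the genes of oxidative phosphorylation 13 of 26 were higher, and 0 passed or had an unadjusted p under 0.05 in the 6-library fit of edgeR's quasi-likelihood test. Of 23 cholesterol synthesis genes 4 fell without young stem 1, against 2.85% of all genes. Among them was Insig1, a sterol sensor (-0.77 ± 0.15, 0.0077). Young stem 1 was nearer to the aged mean for all 4, as for 1098 of all 1332 calls.

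Stromal and matrix genes were lower in all 23 tested cases, with a median of -1.57, and the groups did not overlap for 13 of them, against 6.36% of all genes on that side. With a filter of at least 5 CPM in 3 libraries, which leaves out the low members, the median was -0.79. The summed level was 386 and 413 CPM in young stem 1 and 2, 148 CPM in young stem 3, and 113, 119 and 121 CPM in the aged libraries. Young stem 3 thus lay near the aged libraries. Col1a1, a chain of type I collagen, shows it at 47.5, 33.8 and 2.22 CPM young and 0.415, 0.629 and 0.513 CPM aged. Col3a1, the type III collagen gene, was at 54.9, 54.3 and 2.41 CPM young and 1.04, 1.38 and 1.03 CPM aged. Sparc, a collagen-binding protein, was at 14.6, 16.1 and 2.17 CPM young and 0.277, 0.754 and 0.879 CPM aged. For these 3 genes the groups did not overlap, yet the spread within the young group was wide and none passed. Without young stem 2 the median of the list was -0.88, and without young stem 3 it was -1.93. Smooth muscle markers were likewise highest in young stem 1 and 2, but young stem 3 lay within the aged range, with sums of 58.6, 48.4 and 12.6 CPM young and 15.8, 14.1 and 11.7 CPM aged. The same held for the macrophage lysozyme gene Lyz2, at 29.1, 27.7 and 1.97 CPM young and 2.83, 4.46 and 1.03 CPM aged. Their part in the results of other genes was not tested. Bgn and Fn1 fell, with young stem 3 on the side of the young. Bgn, a matrix proteoglycan, was at 4.44, 5.14 and 4.68 CPM young and 1.73, 1.07 and 0.953 CPM aged (-1.94 ± 0.38, adjusted p = 0.00885). Fn1, which encodes fibronectin, was at 41.8, 57.8 and 35.1 CPM young and 29.2, 25.1 and 23.3 CPM aged (-0.82 ± 0.21, 0.0291).

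Other genes with the smallest p in the 6-library fit had groups that did not overlap. All genes of this paragraph also passed without young stem 1, and 2 of those calls, Fam71a (0.0511) and Kpna4 (0.0685), were lost with the GC term. Changes given here are of the 6-library fit. Higher ones were Ablim1, an actin-binding protein, at 11.2, 14.7 and 13.9 CPM young and 25.4, 30.9 and 33.1 CPM aged (1.16 ± 0.20, adjusted p = 0.158), and Baiap3, which acts in dense core vesicle traffic, at 7.05, 5.78 and 4.83 CPM young and 14.8, 20.2 and 13.2 CPM aged (1.47 ± 0.26, 0.16). Anks6, Amigo2, Fam71a and Col11a2 were higher too, with changes of 1.90 ± 0.28 (0.0938), 2.05 ± 0.31 (0.106), 1.43 ± 0.26 (0.16) and 1.41 ± 0.26 (0.16). Lower ones were Dek, a chromatin protein, at 181, 219 and 162 CPM young and 91, 84.4 and 124 CPM aged (-0.91 ± 0.20, 0.284), and Zbtb16, the transcription factor PLZF, at 11.2, 17.9 and 22.7 CPM young and 6.22, 5.53 and 7.77 CPM aged (-1.42 ± 0.29, 0.256). Kpna4, an importin, Fkbp9, a prolyl isomerase, and Col1a2, a collagen chain, changed by -0.75 ± 0.16 (0.262), -1.23 ± 0.22 (0.16) and -2.88 ± 0.43 (0.106). Itpripl2, Rbms1, Slc38a4 and Trim35 changed by -1.21 ± 0.22 (0.168), -1.58 ± 0.28 (0.16), -1.64 ± 0.29 (0.16) and -1.48 ± 0.28 (0.2). Rps4y2, a ribosomal protein S4 copy, was at 48.6, 18 and 19.4 CPM young and 2.63, 2.26 and 0.293 CPM aged (-4.01 ± 0.70, 0.262).

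Among the genes with the smallest p without young stem 1, several had young stem 1 on the aged side. Cldn4, a tight junction protein, was at 72.5, 21.1 and 22.6 CPM young and 57.5, 87.2 and 59.4 CPM aged (1.67 ± 0.20, adjusted p = 0.000585), and Arhgef38 at 91.3, 31.1 and 29.5 CPM young and 69.4, 77.3 and 63.2 CPM aged (1.23 ± 0.16, 0.00102). Xpo1, the main nuclear export receptor, was at 124, 342 and 262 CPM young and 125, 115 and 151 CPM aged (-1.19 ± 0.16, 0.00142). Mbnl3, a splicing regulator, was at 38.8, 109 and 91.7 CPM young and 38.6, 39.2 and 45 CPM aged (-1.26 ± 0.15, 0.000598), and Arhgap5 changed by -1.23 ± 0.18 (0.00206). Pde11a, a phosphodiesterase, and Kbtbd11 had groups that did not overlap with young stem 1 included, at 12.4, 5.38 and 5.61 CPM young and 22.8, 18.2 and 17.3 CPM aged for Pde11a (1.85 ± 0.23, 0.000884) and 16.2, 33.8 and 39.1 CPM young and 13.5, 15.1 and 10.6 CPM aged for Kbtbd11 (-1.45 ± 0.19, 0.00123). Zfp91cntf and Zfp91 overlap, so their reads cannot be told apart with certainty. Zfp91cntf, which had no GC value, was at 39.3, 1.17 and 1.08 CPM young and 29.8, 34.3 and 35 CPM aged, and Zfp91 at 64.1, 189.9 and 183 CPM young and 64.5, 68.3 and 100.5 CPM aged.

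The age change of stem cells was set against that of Paneth cells in a fit of all 13 libraries. The difference passed for 0 of 16960 genes in edgeR's quasi-likelihood test (0.0%), with a smallest adjusted p of 0.0512 and 1493 genes at an unadjusted p under 0.05 (8.8%), 4.5% more positive and 4.3% more negative in stem cells. Without young stem 1 it passed for 17 of 17423 genes (0.0976%), 12 more positive (0.0689%) and 5 more negative (0.0287%). Clock genes stood on the negative side: the age change of Dbp differed by -3.80 ± 0.50 (adjusted p = 0.0105), that of Tef by -3.10 ± 0.36 (0.00406) and that of Per2 by -2.31 ± 0.34 (0.0183). In Paneth libraries, on a scale common to the 13, Tef was at 17.7 to 30.0 CPM young and 45.8 to 70.8 CPM aged, opposite to stem cells. Tnf was on the positive side (8.17 ± 0.94, adjusted p = 0.00406), at 3.95 to 12.1 CPM in young and 0.0 to 0.583 CPM in aged Paneth libraries. Amotl1, a junction protein that binds Yap, differed by -1.99 ± 0.33 (0.0347): it was at 15.8, 22.4 and 24.1 CPM in young and 6.91, 5.72 and 5.57 CPM in aged stem libraries, and on the common scale at 17.7 to 19.5 CPM in young and 17.6 to 20.8 CPM in aged Paneth libraries. For the class II genes Cd74 and H2-Ab1 the difference did not pass in all 13 libraries (adjusted p = 0.497 and 0.541), and Cd74 was at 177 to 486 CPM in young and 43.5 to 345 CPM in aged Paneth libraries.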

How the data were processed

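Per the labels, stem cell RNA was read on Illumina HiSeq machines. The authors deposited 1 value per gene under the name FPKM, but the values behave like expected counts: 69.77% to 77.49% of those under 20 lie within 0.001 of a whole number, and they sum to a different total in each library. The submitters' processing notes name mm10 and DESeq without a role; the aligner, counter and annotation were not given in the sources used here. The 36186 rows were summed by Entrez ID to 35791 genes and rounded. Depth was 8398966 to 19740104 reads, and for genes with many reads counting error is small against library spread, but not for genes under about 1 CPM (biological coefficient of variation 0.246 with 6 and 0.189 with 5 libraries).

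Age was tested as aged minus young with edgeR 4.0.16 (trimmed mean scaling, filterByExpr, robust quasi-likelihood fit) in R 4.3.3, with Benjamini-Hochberg adjustment over all genes tested and a threshold of 0.05, on the 6 stem libraries and again without young stem 1. The difference from Paneth cells was tested over all 13 libraries. SE is the log2 change over the square root of the F statistic. Adjusted p-values in the text are from these fits, and where an earlier value in a sentence names the tool, later values in brackets are of the same kind. The fits were tested on simulated counts. Alternatives were other scalings, filters, DESeq2 1.42.0, limma-voom (limma 3.58.1), a block for the replicate number, a fit of all 13 libraries, each library left out, and a GC term (lowess span 0.3) added after the data were seen. Promoter windows and their sequences are from RefSeq (GRCm38.p6), matched by symbol.

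Members and the 50 gene lists were chosen with earlier results of these data known, and lists were described by counts and medians without a test. The text names the marker and sex-linked genes, the 12 genes each way with the smallest p in either fit at a mean of at least 5 CPM, and up to 6 members of a list by smallest p, or any member of a list described in depth. Predicted genes and small RNA genes were not named. Some genes are not reported here.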

Additional observations from a re-analysis of the deposited data

How the results depend on the processing

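Counts depended on the processing. With 6 libraries, where 0 genes passed, 11 passed without a filter on low counts, 123 in DESeq2, 1070 in limma-voom with sample weights and 5 with all 13 libraries, and 0 to 1332 with 1 library left out, the 1332 without young stem 1 and 46 (3 higher, 43 lower) without young stem 3. Without young stem 1, where 1332 passed, DESeq2 called 2021 and the GC correction 847 (against 1440 uncorrected on the same 16606 genes), and leaving out another library gave 75 (young stem 2) to 3104 (aged stem 3), with 305 without young stem 3, 751 without aged stem 1 and 487 without aged stem 2. Scaling by totals gave 36.03% higher calls against 60.89%. The difference from Paneth cells, with 0 genes, had 17 without young stem 1 and 1983 in limma-voom with sample weights.

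The labels do not say whether replicate numbers pair libraries across ages. Same-numbered libraries had correlations of deviations from their group means of 0.007, -0.142 and 0.146. With 3 libraries per group these values cannot decide it. With the replicate number as a block 15 genes passed with 6 libraries, 1272 without young stem 1 and 8 for the difference, against 0, 1332 and 0. Of the named genes, 16 with changes near 0 or set by 1 library changed sign in the 6-library fit. With 1 library left out, log2 changes ran from -0.09 to 0.09 for Atf4, -0.12 to 0.1 for Atf6, -0.16 to 0.05 for Atoh1, -0.12 to 0.22 for Axin2, -0.13 to 0.03 for B2m and -0.61 to 0.01 for Cd3e. They ran from -0.2 to 0.12 for Fos, -0.11 to 0.04 for Hes1, -0.28 to 0.09 for Icam1, -1.66 to 0.5 for Kdm5d and -0.29 to 0.11 for Mki67. They ran from -0.06 to 0.77 for Msi1, -0.1 to 0.57 for Myc, -0.14 to 0.1 for Nfkb1, -0.34 to 0.13 for Olfm4 and -0.02 to 1.17 for Phlda1. With the GC correction Axin2 was at -0.11, B2m at 0.1, Mki67 at 0.0, Nfkb1 at 0.05 and Olfm4 at 0.02. Atf6 was at 0.0 with library totals and in limma-voom. In limma-voom with sample weights Atf6 was at -0.06, Fos at 0.03, Icam1 at 0.0, Kdm5d at 0.28 and Nfkb1 at 0.05. The causes were not tested. Depth limits genes at low CPM.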

Other observations

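Gene groups not described above gave the following values. Of 25 tested genes of nutrient sensing, 16 were higher without young stem 1 (median log2 change 0.2, against 0.0 over all genes). Of the 25, 2 rose, against 4.44% of all genes. Irs2, an adaptor of insulin signalling, was at 107, 33 and 46.5 CPM in young stem 1, 2 and 3 and at 113, 114 and 80.0 CPM in the aged libraries (1.39 ± 0.20 SE, adjusted p = 0.0018 in edgeR's quasi-likelihood test). Foxo3, a transcription factor that insulin signalling restrains, was at 87.2, 40.5 and 48 CPM young and 89.2, 89.2 and 59.4 CPM aged (0.87 ± 0.19, 0.0147). Young stem 1 lay within the aged range for both genes. Of the cell cycle inhibitor and senescence genes 17 of 25 were higher with 6 libraries (median 0.11). Among them Gadd45b, a stress sensor, was at 29.8, 26.6 and 24.8 CPM young and 50.9, 45.3 and 29.9 CPM aged, without overlap, and rose without young stem 1 (0.74 ± 0.21, 0.0463; with the GC term 0.183), while Ccng1, a p53 target, fell (-0.81 ± 0.17, 0.0116). Ribosomal protein genes were higher in 20 of 28 cases, with a median of 0.11 with 6 libraries and 0.28 without young stem 1. Prox1, a homeobox factor, had 63.7 CPM in young stem 1, against 1.69 to 10.1 CPM elsewhere, and was singled out after its values were seen.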
